A study of Mus musculus with 29 samples.

Results

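The comparison described here is the response of prefrontal cortex to fluoxetine in female mice set against the response in male mice, on autosomal genes. It rests on 14 of the 29 libraries of the series, chosen by their labels, and on 17269 tested autosomal genes of 17617 in the table. All 14 libraries came from C57BL/6J mice at P40 (postnatal day 40) with 1 copy of the Tbr1 K228E allele (heterozygous, HT), so the controls carried the allele too. HT females given fluoxetine (n = 4) were set against HT females given vehicle (n = 3), and HT males given fluoxetine (n = 4) against HT males given vehicle (n = 3). The measure of interest is the interaction, the female response minus the male response on the log2 scale. A negative value means that fluoxetine minus vehicle was lower in females than in males. Dose, route and duration of treatment are not in the labels, and wild-type (WT) mice received vehicle only (4 females, 4 males), so whether the sexes differ in the same way without the allele was not measured. WT values are given as reference levels. The remaining libraries came from HT mice given lithium (3 females, 4 males), which entered the fit with the WT libraries, so that all groups share 1 estimate of the spread.

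Fluoxetine blocks the serotonin transporter and so raises serotonin outside the cell. TBR1 is a transcription factor that shapes the identity of cortical projection neurons. Most subunits of the oxidative phosphorylation complexes are encoded by nuclear genes, many of them with short transcripts. Complexes I to IV carry electrons from nutrients to oxygen, and complex V uses the resulting proton gradient to make ATP, the main fuel of synaptic signalling in cortex. Ribosomal protein genes likewise have short, abundant transcripts.

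The 14 libraries held 23.35 M to 31.35 M reads, and values are read counts divided by a size factor per library. Xist matched the sex label in every library of the series, and no pair of libraries was identical. All 17 upper layer and all 17 layer 5 marker genes in the table passed the filter on low values. The interaction of Tbr1 itself was -0.14 ± 0.18 (SE, limma adjusted p = 0.783). It read 4593, 4015 and 3728 in vehicle females and 2858, 4766, 3939 and 4628 in fluoxetine females. In males it read 3730, 3822 and 4515 with vehicle and 4102, 4431, 4295 and 4255 with fluoxetine. Fluoxetine female 1 was the lowest of the 14, and the groups overlapped in both sexes. Sets of striatal or olfactory marker genes stood high in 4 of the 8 fluoxetine libraries (females 1 and 2, males 1 and 2) and in none of the 6 HT vehicle libraries. High means that the mean of either set was more than 1 (log2) over the median library of the series. Counts of genes are therefore also given without all such libraries, which include lithium female 2, WT females 1 and 3 and WT male 3. In bulk tissue, fewer cells of a type and less RNA per cell cannot be told apart.

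The interaction passed the threshold (limma, Benjamini-Hochberg adjusted p under 0.05) in 17 genes, which is 0.0984% of those tested. In 1 gene (0.00579%) the response was higher in females and in 16 it was lower (0.0927%). All 16 had a negative estimate in females and a positive one in males, as did 4741 of all 17269 tested genes. Genes picked for a large difference between the responses tend to have opposite signs, so this is not a separate result. At an unadjusted p under 0.05 the interaction held 2338 genes (13.5%), of which 1162 were positive (6.73%) and 1176 negative (6.81%). The same fit called 3 genes in females (0.0174%), all lower with fluoxetine, and 0 in males (0%). At an unadjusted p under 0.05 there were 2018 genes in females (11.7%; 5.44% positive, 6.25% negative) and 1728 in males (10%; 4.42% positive, 5.59% negative). edgeR on recovered reads called 18 genes in the interaction, 6 in females and 0 in males, and DESeq2 called 192 (53 higher, 139 lower), 130 and 0. Across the 17269 genes the female and male responses, which share no library, had a Pearson r of 0.016 and a Spearman rho of -0.11 across genes. Their signs matched in 44.84% of genes. A fit to the 4 groups alone called 0 genes in the interaction, with 1805 at an unadjusted p under 0.05. Leaving out 1 library at a time gave between 2 calls (without vehicle female 3) and 47 (without fluoxetine female 2, or without vehicle male 2).

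**Figure D1:**
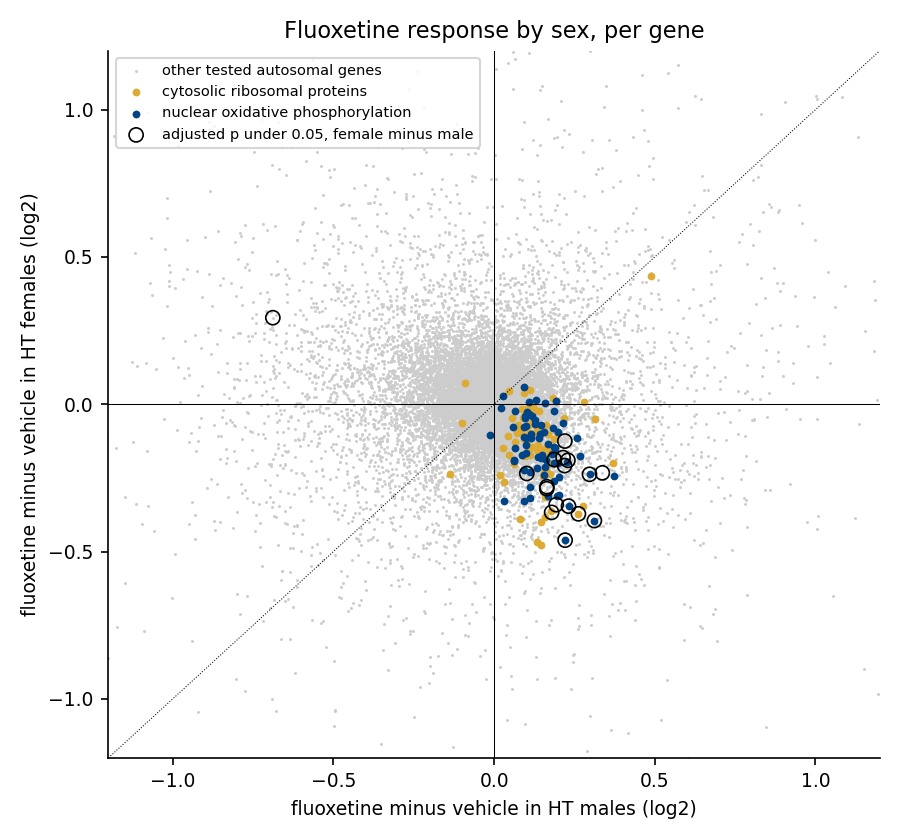
Fluoxetine minus vehicle (log2) in HT males on the x axis and in HT females on the y axis, 1 point per tested autosomal gene, with oxidative phosphorylation and ribosomal protein genes in colour and the 17 genes past the threshold of the interaction ringed; 198 genes lie outside the axes. Of the ringed genes, 16 sit at the lower right, with a negative female and a positive male response, and Pcdhga2 sits at the upper left.

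Oxidative phosphorylation genes were prominent among those with a lower response in females, with 1 subunit each of complexes I, III, IV and V. Ndufa2, an accessory subunit of complex I (ENSMUSG00000014294, chromosome 18), had the smallest p. It read 1027, 1176 and 1286 in vehicle females and 974.3, 909.4, 860.5 and 788.2 in fluoxetine females. Vehicle males read 892.9, 1006 and 1023, and fluoxetine males 1297, 1168, 1204 and 1165. Every fluoxetine female lay below every vehicle female, and every fluoxetine male above every vehicle male. Here and below, groups that do not overlap are a description of genes picked by p and not separate support. How many of all tested genes have such groups was not counted. The interaction was -0.71 ± 0.11 (log2, SE, limma adjusted p = 0.00336), from a female response of -0.39 (adjusted p = 0.0501) and a male response of 0.31 (adjusted p = 0.291). WT females lay between 999.4 and 1151 and WT males between 964.8 and 1111. Ndufa2 overlaps Tmco6 on the opposite strand, and the strand setting of the counting is not given in the sources used here. Leaving out any 1 library kept its adjusted p at or below 0.0292.

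Uqcr10 (ENSMUSG00000059534, chr11:4701973-4704342) encodes a small subunit of complex III. It read 2034, 2016 and 2273 in vehicle females and 1684, 1655, 1458 and 1343 in fluoxetine females. Male values were 1737, 1711 and 1616 with vehicle and 1999, 1971, 1824 and 2083 with fluoxetine. The groups did not overlap in either sex, and vehicle females stood above all 4 WT females (1687 to 1830). The interaction was -0.68 ± 0.12 (limma adjusted p = 0.0126), and Uqcr10 was 1 of the 3 genes that fell within females, by 0.46 on the log2 scale (SE 0.08, limma adjusted p = 0.0354). The female call was lost in several settings, with an adjusted p of 0.339 without vehicle female 3.

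Cox7a2 (ENSMUSG00000032330, chr9:79755361-79759878), a subunit of cytochrome c oxidase or complex IV, read 2796, 2861 and 3349 in vehicle females and 2548, 2274, 2277 and 2328 in fluoxetine females. Vehicle males read 2354, 3004 and 2546, and fluoxetine males 3068, 2867, 3043 and 3351. The female groups were apart and the male groups overlapped, since vehicle male 2 lay above fluoxetine male 2. The interaction was -0.58 ± 0.10 (limma adjusted p = 0.013). Atp5e (ENSMUSG00000016252, chr2:174461072-174464105), the epsilon subunit of the ATP synthase or complex V, read 1090, 1158 and 1335 in vehicle females and 1040, 1073, 1016 and 915.4 in fluoxetine females. In males it read 960, 1171 and 973.1 with vehicle and 1227, 1243, 1216 and 1386 with fluoxetine. Neither sex showed an overlap, though the gap in females was narrow. The interaction was -0.53 ± 0.10 (limma adjusted p = 0.0287). Small subunits of these complexes have processed pseudogenes in the genome, and how the counting divided reads between such copies is not given in the sources used here.

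**Figure D2:**
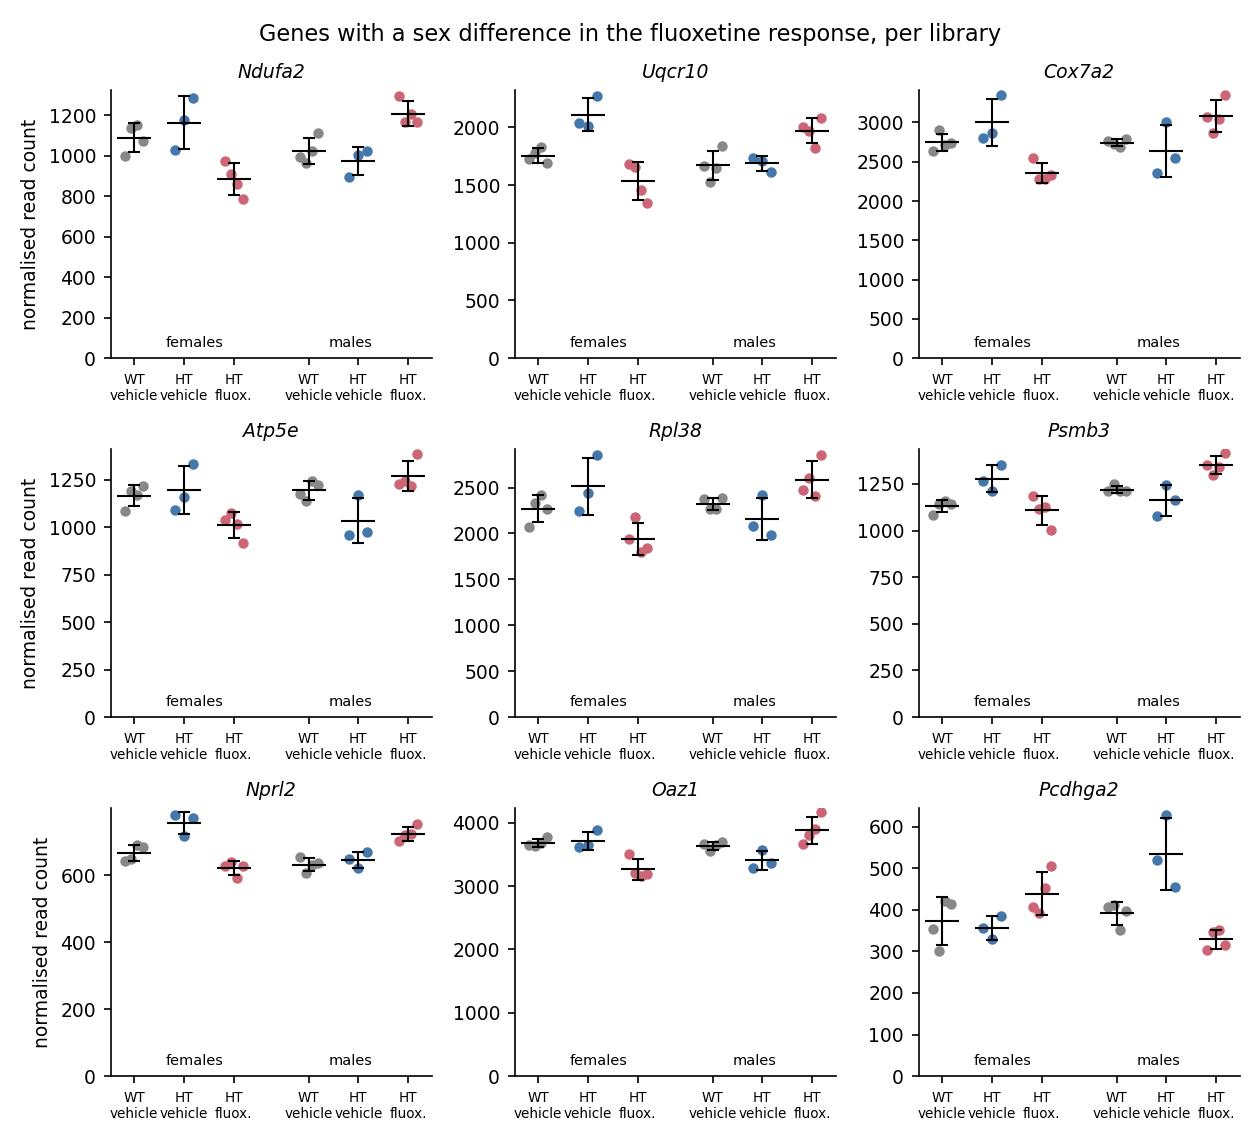
Normalised read count per library (points) with mean and SD (bars) in the WT vehicle, HT vehicle and HT fluoxetine groups, females left and males right of each panel, for 9 genes past the threshold of the interaction. In 8 panels the fluoxetine points lie low in females and high in males, and in the Pcdhga2 panel they lie high in females (391.9 to 506.5) and low in males (304.0 to 352.5).

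Over the whole list of nuclear oxidative phosphorylation genes, 70 of 74 entries were autosomal and tested. The interaction was negative in all 70, with a median of -0.27 against 0.01 over all tested genes. Of the 70, 4 were called lower (background 0.0927%) and 51 were negative at an unadjusted p under 0.05 (background 6.81%). The female response was negative in 64 of 70 (median -0.15) and the male response positive in 69 of 70 (median 0.14). Over all 17269 tested genes, 8662 were negative in females and 8565 positive in males. In 63 genes of the list the female estimate was negative and the male estimate positive, and in 0 genes it was the other way round. The same counts over all tested genes were 4741 and 4783. By complex, the median interaction was -0.26 for complex I (33 genes), -0.16 for complex II (4 genes), -0.26 for complex III (9 genes), -0.39 for complex IV (9 genes) and -0.30 for complex V (15 genes). All 9 tested genes of complex IV had an unadjusted p under 0.05, the highest share of the complexes, and complex II held 2 of 4.

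The mean of the list in each library, after centring each gene on its mean over the libraries, was 0.03, 0.04 and 0.08 in vehicle females and -0.16, -0.01, -0.10 and -0.14 in fluoxetine females. In males it was -0.12, 0.07 and -0.08 with vehicle and 0.06, 0.08, 0.08 and 0.19 with fluoxetine. The female groups were apart. The male groups overlapped, because vehicle male 2 stood level with fluoxetine males 1, 2 and 3. WT libraries ranged from -0.06 to 0.06 in females and from -0.06 to 0.01 in males. Without the libraries with high striatal or olfactory markers the median interaction was -0.34. With the index of transcript length described with the exon lengths as a covariate it was -0.15.

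Genes of protein synthesis and protein breakdown had a like pattern. Rpl38, a protein of the large ribosomal subunit (ENSMUSG00000057322, chr11:114668524-114672331), read 2244, 2446 and 2854 in vehicle females and 1936, 2180, 1795 and 1844 in fluoxetine females. Vehicle males read 2076, 2419 and 1978, and fluoxetine males 2469, 2600, 2409 and 2860. The female groups were apart and the male groups overlapped only through vehicle male 2 and fluoxetine male 3. The interaction was -0.63 ± 0.13 (limma adjusted p = 0.0332), and it was the 1 ribosomal protein gene called. Rps21, of the small subunit, had an interaction of -0.62 ± 0.14 and missed the threshold (adjusted p = 0.0773). Ribosomal protein genes have many processed pseudogenes, so their values carry the same uncertainty of counting.

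Of 75 tested cytosolic ribosomal protein genes, 73 had a negative interaction, with a median of -0.26, and 48 were negative at an unadjusted p under 0.05 (background 6.81%). With an index of transcript length as a covariate, described with the exon lengths, the median was -0.06. The female median was -0.13 and the male median 0.12. The large subunit (44 genes, median -0.23) and the small subunit (31 genes, median -0.26) gave near values. Library means of the list were -0.003, 0.01 and 0.12 in vehicle females and -0.006, -0.05, -0.10 and -0.19 in fluoxetine females, so that the groups were apart by a narrow margin. In males they were -0.08, 0.05 and -0.08 with vehicle and 0.04, 0.09, 0.05 and 0.18 with fluoxetine, and overlapped through vehicle male 2. Lists of proteasome and mitochondrial ribosomal protein genes were added after values had been seen. The interaction was negative in 34 of 38 proteasome genes (median -0.15, 2 called) and in 70 of 78 mitochondrial ribosomal protein genes (median -0.14, 1 called), against 8454 of 17269 genes negative and 0.0927% called lower over all tested genes.

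**Figure D3:**
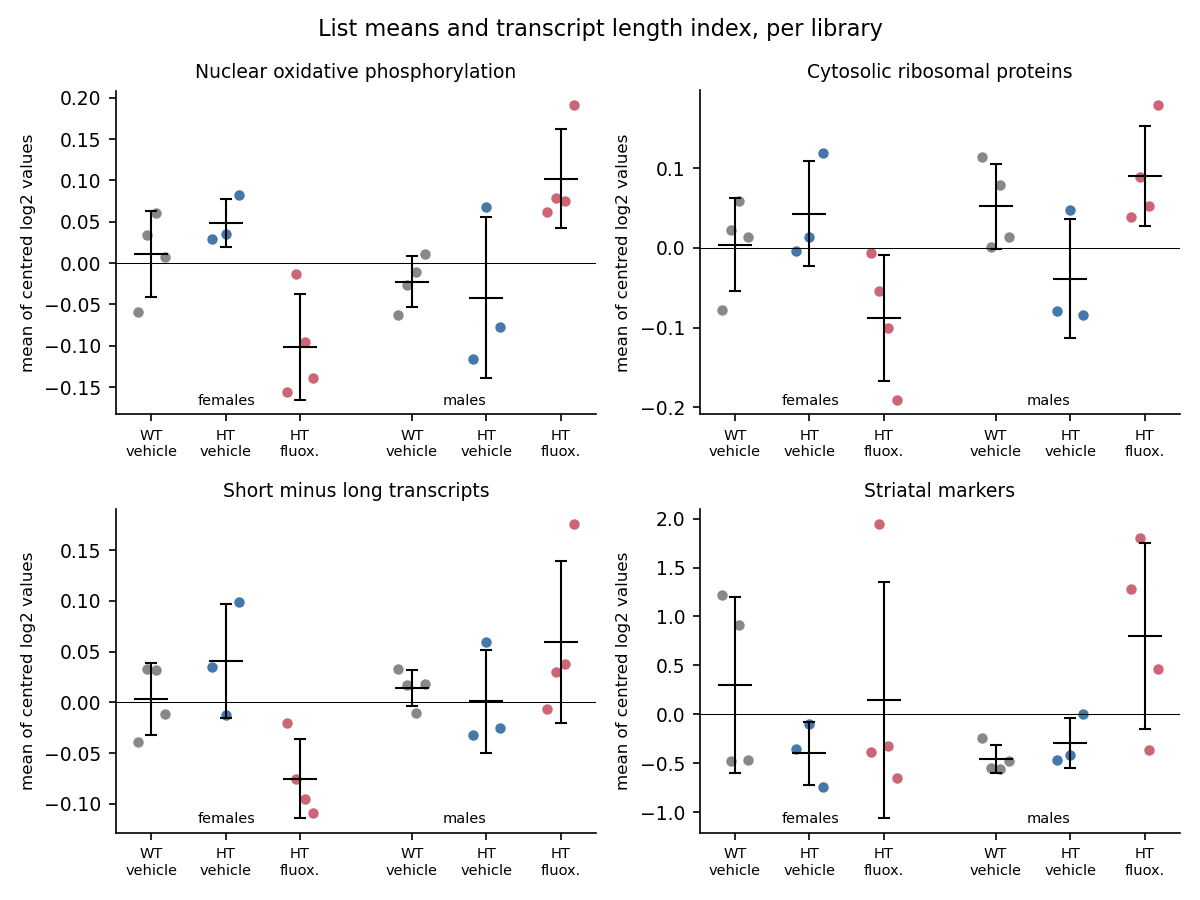
Mean of centred log2 values per library (points) with group mean and SD (bars) for oxidative phosphorylation genes, ribosomal protein genes, the short minus long transcript index and striatal markers, in WT vehicle, HT vehicle and HT fluoxetine libraries of each sex. The group mean of fluoxetine females is the lowest of the 6 in the first 3 panels, and the striatal panel shows fluoxetine female 2 at 1.95 apart from the other 3 of its group.

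Both called proteasome genes encode beta subunits of the catalytic core. Psmb3 (ENSMUSG00000069744) read 1268, 1213 and 1354 in vehicle females and 1185, 1114, 1127 and 1004 in fluoxetine females. Male values were 1076, 1243 and 1165 with vehicle and 1354, 1297, 1338 and 1414 with fluoxetine. Its groups were apart in both sexes, and the interaction was -0.43 ± 0.08 (limma adjusted p = 0.0156). Psmb4 had an interaction of -0.34 ± 0.07 (adjusted p = 0.0454), with fluoxetine males (1742 to 1915) above vehicle males (1474 to 1635) and an overlap in females. Oaz1 (ENSMUSG00000035242, chr10:80826656-80829290) encodes antizyme, which sends ornithine decarboxylase to the proteasome and limits polyamine synthesis. It read 3621, 3654 and 3879 in vehicle females and 3506, 3205, 3162 and 3189 in fluoxetine females. Vehicle males read 3290, 3578 and 3367, and fluoxetine males 3668, 3807, 3895 and 4173. Neither sex showed an overlap, and the interaction was -0.37 ± 0.06 (limma adjusted p = 0.0126).

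Nprl2 encodes a subunit of GATOR1, the complex that restrains the growth kinase mTORC1 when amino acids are scarce. This gene (ENSMUSG00000010057, chr9:107542226-107545706) was called both in the interaction and within females. It read 780.5, 718.1 and 770.1 in vehicle females and 629, 640.3, 592.5 and 628.5 in fluoxetine females. In males it read 648.4, 620.3 and 669.7 with vehicle and 701.2, 720.1, 722 and 752.7 with fluoxetine. The groups did not overlap in either sex, and vehicle females were above all WT females (643.9 to 690.4). The interaction was -0.44 ± 0.07 (limma adjusted p = 0.00544), and within females Nprl2 fell by 0.28 on the log2 scale (SE 0.05, limma adjusted p = 0.0354). The call of the interaction held on leaving out any 1 library (highest adjusted p 0.0347). The female call did not, with an adjusted p of 0.29 without vehicle female 3.

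For the called genes, the 250 bases before their RefSeq start (GRCm38.p6) were searched on both strands for letters of factors known to act on mitochondrial and ribosomal genes. A match is a description of letters and not of a site in use. The called genes were picked from these data, and the other genes were not matched to them in class or length. The core CCGGAAG of the ETS factor GABP lay at least once in 5 of the 13 called genes with a promoter entry (38.5%; Nprl2, Atp5e, Rab24, Rpl38 and 1110065P20Rik), in 19% of 58 oxidative phosphorylation genes, in 32.7% of 55 ribosomal protein genes and in 12.2% of 12156 tested autosomal genes with an entry. The letters GCGCATG, from the motif of NRF1, lay in 0 of the 13, in 15.5% of the oxidative phosphorylation genes and in 5.29% of all entries. In Rpl38 the match lies past the start of the gene in GENCODE M21, and in 1110065P20Rik no base of the window lies before that start. Before it, the match lies in Nprl2, Atp5e and Rab24 only. These upstream stretches are shown because they belong to called genes with the match (Nprl2, chr9:107541959-107542208, plus strand, and Atp5e, chr2:174464106-174464351, minus strand) and without it (Uqcr10, chr11:4704345-4704594, minus strand). Capitals mark CCGGAAG or its reverse complement, and each runs 5′ to 3′ towards the gene and stops before its start in GENCODE M21, so that of the 250 bases searched 246 are printed for Atp5e.
Nprl2: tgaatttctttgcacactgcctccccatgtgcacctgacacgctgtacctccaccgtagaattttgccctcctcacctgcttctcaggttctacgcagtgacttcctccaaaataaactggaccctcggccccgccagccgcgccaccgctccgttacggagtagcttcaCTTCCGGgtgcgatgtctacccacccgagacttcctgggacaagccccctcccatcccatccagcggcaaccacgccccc
Atp5e: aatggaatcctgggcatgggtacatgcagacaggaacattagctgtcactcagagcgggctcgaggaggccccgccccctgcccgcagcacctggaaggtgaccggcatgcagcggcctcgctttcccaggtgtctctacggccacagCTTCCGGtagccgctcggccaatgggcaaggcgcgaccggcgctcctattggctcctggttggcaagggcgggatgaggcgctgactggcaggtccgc
Uqcr10: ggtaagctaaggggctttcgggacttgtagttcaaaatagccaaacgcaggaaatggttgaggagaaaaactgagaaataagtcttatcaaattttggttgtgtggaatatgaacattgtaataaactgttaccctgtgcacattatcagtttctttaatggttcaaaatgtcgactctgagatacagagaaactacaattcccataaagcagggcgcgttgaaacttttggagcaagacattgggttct
In Nprl2 and Atp5e the match reads on the strand opposite to the gene, and Uqcr10 holds neither set of letters in this window.

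Of the remaining genes with a lower response in females, Polr2l, a subunit shared by the nuclear RNA polymerases, had an interaction of -0.55 ± 0.11 (adjusted p = 0.0291). It read 641.2 to 716.8 in vehicle females and 500.2 to 531.4 in fluoxetine females, with no overlap. In males the groups overlapped, at 486.6 to 578.1 with vehicle and 575.9 to 643.8 with fluoxetine. Acot13, a thioesterase that releases fatty acids from coenzyme A, had an interaction of -0.45 (adjusted p = 0.0321), and Txndc17, a thioredoxin-related protein, one of -0.42 (adjusted p = 0.0291). Rab24, a small GTPase linked to autophagy, had -0.34 (adjusted p = 0.029) and shares opposite strands with Prelid1. Mrpl20, of the mitochondrial ribosome, had -0.40 (adjusted p = 0.0489). The clone-named genes 2410015M20Rik (-0.53) and 1110065P20Rik (-0.57), the latter overlapping Mtf1 and Yrdc, complete the set. In Acot13, Txndc17, Rab24 and both clone-named genes the groups were apart in each sex, which the choice of genes by p favours.

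Pcdhga2 was the 1 gene whose response was higher in females. It encodes a gamma protocadherin, 1 of a cluster of cell adhesion proteins expressed in combinations by single neurons. It read 356.8, 328.8 and 386.1 in vehicle females and 407.6, 391.9, 451.6 and 506.5 in fluoxetine females. Vehicle males read 521.3, 627.8 and 455.6, and fluoxetine males 304, 345.8, 352.5 and 315. Vehicle males were above all WT males (350.8 to 411.8), and the groups did not overlap in either sex. The interaction was 0.98 ± 0.18 (limma adjusted p = 0.0225), and the male response of -0.69 had the smallest p among males without passing (adjusted p = 0.28). Gamma protocadherins share their last exons, so reads could be divided among members, and Pcdhga2 also overlaps BC037039 and Gm26672 on the opposite strand. The call was lost on leaving out any of 6 single libraries, with an adjusted p of at most 0.094.

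The next genes with a positive interaction did not pass the threshold. They are given by values, as the 9 named genes with the smallest p after Pcdhga2, and all had an adjusted p between 0.0767 and 0.0964. Tent4b, a poly(A) polymerase that adds tails to RNA, had an interaction of 0.33 ± 0.07. It read 1235, 1379 and 1204 in vehicle females and 1440 to 1505 in fluoxetine females, and overlapped in males. Kcnq1ot1, a long noncoding RNA antisense to Kcnq1, had 0.65 ± 0.16, and Ccdc88a, an actin-binding protein, had 0.54 ± 0.13. The others were Pbrm1 of a SWI/SNF remodelling complex (0.35), Mdc1 of the DNA damage response (0.52), the PHD finger protein Phf14 (0.26), Bclaf1 (0.27), the RNA exonuclease Xrn1 (0.41) and Mob1b, a Hippo pathway kinase activator (0.42).

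The interaction varied with transcript length. Called genes had a median exon length of 1664 bases (union of annotated exons) against 4014 over all tested genes, and 16 of the 17 lay in the shortest 3 of 10 equal classes of exon length. Across the 10 classes the median interaction rose without a break from -0.13 in the shortest to 0.14 in the longest. The female median ran from -0.10 to 0.07 and the male median from 0.05 to -0.07. In the longest class 82.7% of genes had a positive interaction, against 36.2% in the shortest. Spearman's rho between exon length and the interaction was 0.28 across 17269 genes, which are not independent and share the same libraries.

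Within the shortest class, oxidative phosphorylation genes (27) had a median interaction of -0.35 and ribosomal protein genes (24) of -0.30, against -0.12 for the other 1676 genes there. In the next class the medians were -0.34, -0.26 and -0.08. A per-library index, the mean of the 3457 shortest genes minus that of the 3454 longest, averaged 0.04 ± 0.06 (SD) in vehicle females, -0.08 ± 0.04 in fluoxetine females, 0.001 ± 0.05 in vehicle males and 0.06 ± 0.08 in fluoxetine males. With this index as a covariate, chosen after the data were seen, 0 genes were called in the interaction (985 at an unadjusted p under 0.05), 0 in females and 0 in males. The median interaction was then -0.15 for oxidative phosphorylation genes and -0.06 for ribosomal protein genes, and the female median of ribosomal protein genes was 0.005. The index is made from the same libraries and holds the short genes themselves, and the part of transcript length or RNA quality in the result was not tested.

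**Figure D4:**
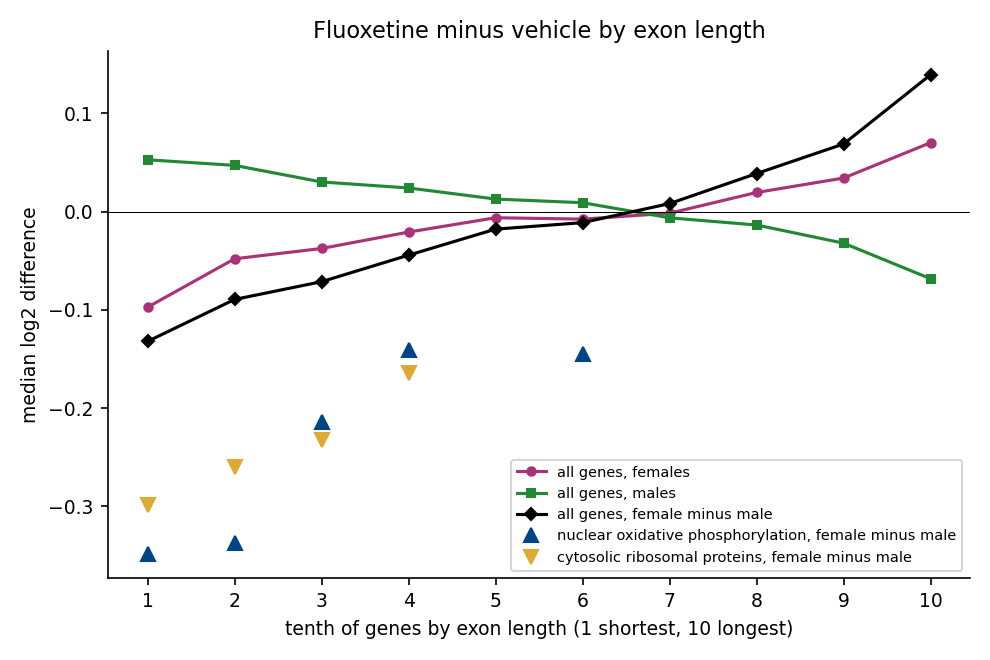
Median log2 difference, fluoxetine minus vehicle, in 10 equal classes of genes ordered by exon length, for females, males and females minus males, with oxidative phosphorylation and ribosomal protein genes as separate points where a class holds enough of them. The female minus male line rises from -0.13 to 0.14, and the points of both lists lie below it in each class shown.

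Within females, the third gene past the threshold beside Uqcr10 and Nprl2 was Tcap, which encodes telethonin, a protein best known from muscle sarcomeres. It read 204.2, 183.6 and 267.6 in vehicle females and 131.8, 118.8, 147.2 and 160.8 in fluoxetine females, with no overlap. Vehicle females were also above all WT females (139.9 to 150.2), whose level the fluoxetine females bracketed. Tcap fell by 0.63 on the log2 scale (SE 0.12, limma adjusted p = 0.048). Its male response was 0.10, and its interaction missed the threshold (adjusted p = 0.0903). H2afj, a histone variant, read 822.9 to 892 in vehicle and 624 to 691.7 in fluoxetine females (-0.40, adjusted p = 0.0501). All 3 female calls were lost when p was adjusted over autosomal genes alone, and leaving out fluoxetine female 1 raised the count to 77.

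Among positive female responses none passed, and the 6 with the smallest p lay between 0.23 and 0.28 on the log2 scale with adjusted p from 0.0501 to 0.106. Dgkb, a diacylglycerol kinase of neurons, read 4613, 4587 and 4294 in vehicle females and 5360, 5402, 5705 and 5359 in fluoxetine females. Bclaf1, a nuclear RNA-binding protein, read 3263, 3279 and 3039 against 3721, 3681, 3819 and 3707. Syncrip, another RNA-binding protein, read 2464, 2320 and 2343 against 2700, 2735, 3058 and 2915. In all 3 the female groups were apart and the male groups overlapped. Wapl and Pds5b, which both regulate release of cohesin from chromatin, had female responses of 0.24 and 0.25, and the noncoding RNA Tug1 had 0.26. The interaction of Dgkb, Syncrip, Wapl, Pds5b and Tug1 was 0.23 to 0.27 with adjusted p of 0.16 to 0.227, so a sex difference was not shown for them.

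Within males no gene passed, and the smallest adjusted p was 0.28. Among the positive estimates with the smallest p, Nostrin, which governs the trafficking of endothelial nitric oxide synthase, read 55.13, 77.94 and 57.24 in vehicle males and 103.2, 95.6, 97.13 and 115.5 in fluoxetine males (0.70, adjusted p = 0.291). The fluoxetine males lay within the range of the HT female libraries of both treatments (93.2 to 132.7). WT females read 84.13 to 152 and WT males 60.83 to 79.56. Ctxn2, a small cortical membrane protein, had 0.64 with an overlap between groups, and Rab5if had 0.20 without one. Among negative estimates, Polr2a, the largest subunit of RNA polymerase II, had -0.19, and Fryl, Zcchc2, Tmem200c and Mdc1 had -0.24, -0.19, -0.27 and -0.35, all with an adjusted p of 0.291.

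In the serotonin list, all 18 autosomal members in the table were tested, 0 were called and 0 had an unadjusted p under 0.05 in the interaction (median -0.01). The female median was 0.06 and the male median 0.11. The smallest p in the list belonged to S100a10, the p11 adaptor that brings serotonin receptors to the membrane (-0.28 ± 0.14, adjusted p = 0.383), followed by the receptors Htr1f (0.41 ± 0.28) and Htr7 (-0.23 ± 0.17). In all 3 the groups overlapped in both sexes. Receptors for noradrenaline, dopamine, acetylcholine and histamine were negative in 18 of 22 cases (median -0.21), 3 of these at an unadjusted p under 0.05 against a background of 6.81%. Library means of these receptors overlapped between groups in both sexes. With the striatal and olfactory marker means as covariates their median was -0.14. Adra1a, an alpha adrenergic receptor, went the other way (0.64 ± 0.18, adjusted p = 0.144), with fluoxetine males (346.4 to 498.7) below vehicle males (538.1 to 683.1). Genes of sex steroid receptors and neurosteroid synthesis were split evenly (12 positive, 12 negative, median -0.003). Greb1, an oestrogen-responsive gene, had an interaction of 1.03 ± 0.38 (adjusted p = 0.231), from male values of 82.43 to 145 with vehicle and 56.95 to 78.74 with fluoxetine and an overlap in females.

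Among activity genes, the immediate early list had a median interaction of 0.14 (28 of 40 positive, 1 positive and 2 negative at an unadjusted p under 0.05). In males 32 of 40 were negative (median -0.13), 11 of them at an unadjusted p under 0.05, against 5.59% of all genes. In females 28 of 40 were negative (median -0.04). With both tissue marker means as covariates the male median was -0.03 and the median interaction 0.07. Fos read 2360, 2524 and 1634 in vehicle males and 1775, 1400, 1190 and 1679 in fluoxetine males, which overlapped (-0.52, adjusted p = 0.361). In females it read 1347, 1580 and 1583 with vehicle and 1954, 1176, 1617 and 1405 with fluoxetine, a response of 0.01. Glutamate receptor and postsynaptic genes (28 of 39 positive, median 0.12) and GABA receptor and inhibitory synapse genes (16 of 22 positive, median 0.17) had positive medians. They have long transcripts (median exon length 7648 and 7006 bases), and with the length index as a covariate their medians were -0.07 and 0.01. Other lists with long transcripts had median interactions nearer to none. These were -0.04 for presynaptic genes (7362 bases), 0.003 for cAMP genes (6705 bases) and 0.04 for neurotrophin genes (6674 bases). The part of transcript length in these medians was not tested. Gria2, a subunit of AMPA receptors, had an interaction of 0.28 and Grin2b, of NMDA receptors, 0.35, with adjusted p of 0.185 and 0.267. In the GABA list the interaction of the receptor subunit gene Gabra2 was 0.28 and that of Gabrd -0.35, neither past the threshold (adjusted p of 0.244 and 0.154).

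Chaperone, lysosome and cholesterol lists had smaller negative medians. Cytosolic heat shock chaperones had -0.12 (20 of 24 negative), cholesterol genes -0.12 (26 of 33), lysosomal genes -0.09 (28 of 35) and chaperones of the endoplasmic reticulum (ER) -0.08 (20 of 30), against 8454 negative of 17269 overall. Hspb1, a small heat shock protein, had an interaction of -0.68 ± 0.19 (adjusted p = 0.145), with vehicle females at 159.6 to 200.1 and fluoxetine females at 111.8 to 153.4. Hspa1b had -0.58 ± 0.17, the lysosomal protease Ctsd -0.26 ± 0.07 (adjusted p = 0.101) and Fdps of sterol synthesis -0.39 ± 0.11. In Fdps the groups were apart in both sexes, with fluoxetine below vehicle in females (928 to 1092 against 1110 to 1195) and above it in males (1051 to 1302 against 944.4 to 1022). Ddit4, induced by glucocorticoids, differed between female groups (885.9 to 1116 with fluoxetine and 1166 to 1419 with vehicle) without passing (-0.37, adjusted p = 0.107) and had a male response of -0.01. Circadian, cAMP, sphingolipid, neurotrophin, potassium channel, interferon and presynaptic lists had median interactions within 0.05 of 0.

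**Figure D5:**
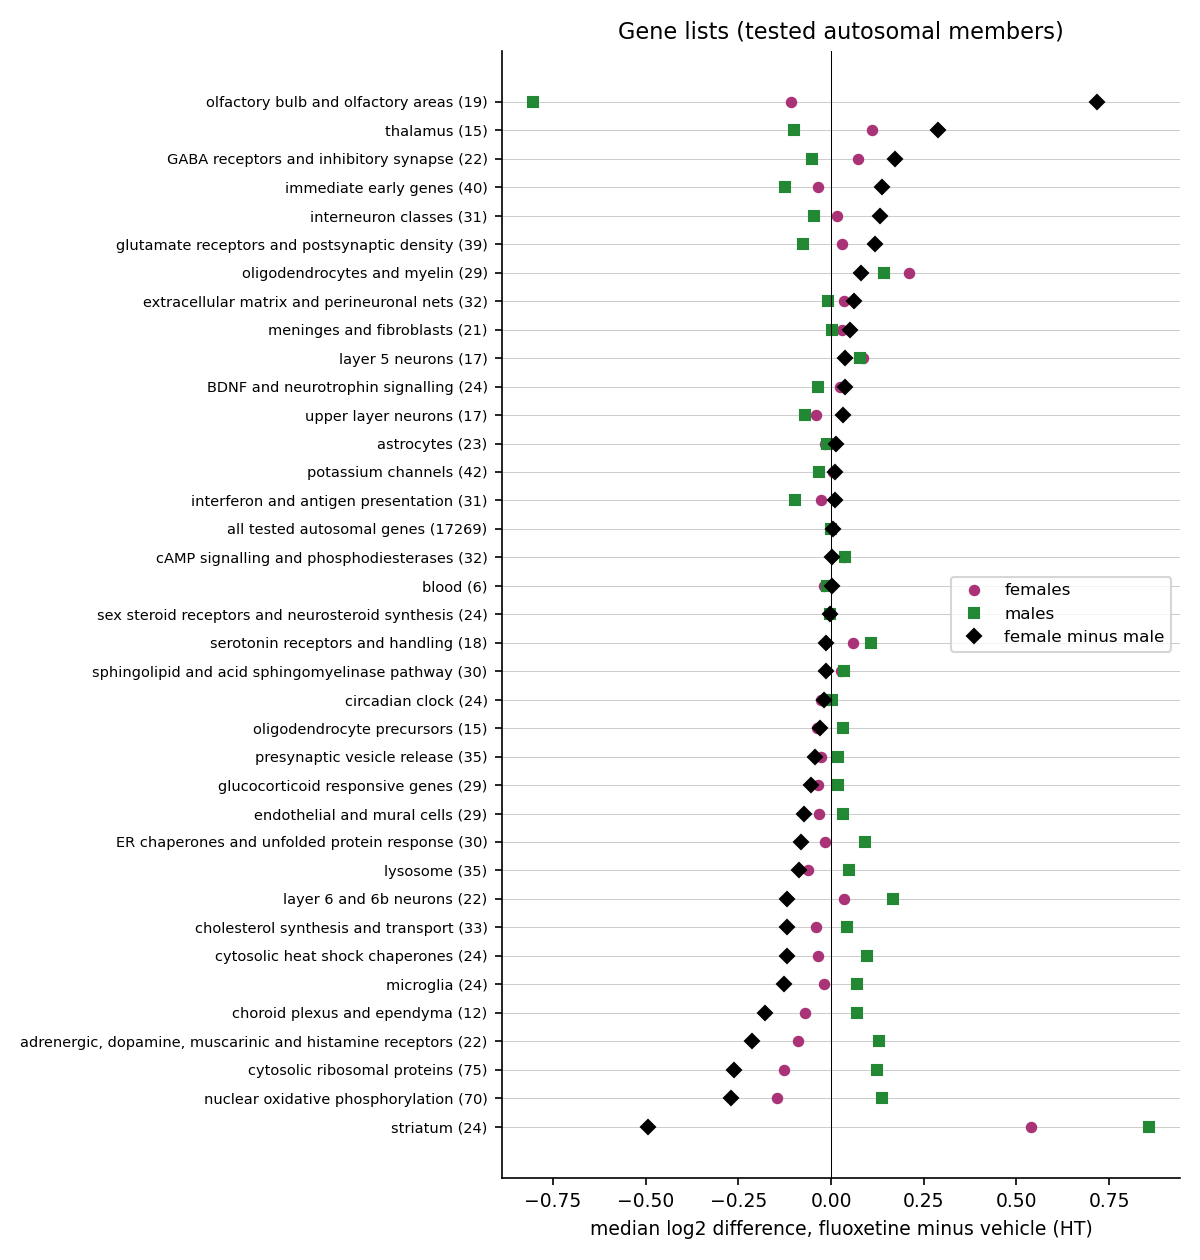
Median log2 difference, fluoxetine minus vehicle, over the tested autosomal members of each list (number in parentheses) for females, males and females minus males. Oxidative phosphorylation and ribosomal protein genes are low in females and high in males, and the striatal and olfactory lists have the widest spread.

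Of all lists, striatal and olfactory markers had the widest median interactions and the largest scatter within both fluoxetine groups. Striatal markers (24 tested of 25) had medians of 0.54 in females and 0.86 in males and -0.50 for the interaction, with 0 called. Their library means were -0.39, 1.95, -0.32 and -0.65 in fluoxetine females and 1.28, 1.81, -0.36 and 0.47 in fluoxetine males, against -0.74 to 0.003 in the 6 HT vehicle libraries. Fluoxetine female 2 and fluoxetine males 1, 2 and 4 lay above every HT vehicle library, and WT females 1 and 3 were also high, at 1.22 and 0.917. Ppp1r1b, the striatal phosphoprotein DARPP, read 5457 in fluoxetine female 2 and 915.9 to 1353 in the other 3 of its group. Olfactory markers (19 tested of 21) had a median interaction of 0.72, with library means from -1.14 to 1.49 in fluoxetine females. Thalamic markers had a median interaction of 0.29 (10 of 15 positive). At an unadjusted p under 0.05, 4 of them were positive and 1 negative (background 6.73% and 6.81%), and library means overlapped in both sexes. The median interaction was -0.18 for choroid plexus and ependyma and -0.12 for layer 6 and 6b neurons. The choice of libraries with high markers did not use these lists. Myelin genes had medians of 0.21 in females and 0.14 in males, with overlapping libraries in both sexes.

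Without the libraries in which the striatal or olfactory marker mean was raised, the interaction called 68 genes (28 higher, 40 lower), which included 13 of the 17. Females then had 2 calls and males 0. With both marker means as covariates the counts were 31 (3 higher, 28 lower, all 17 included), 0 and 0. Oxidative phosphorylation medians in these fits were -0.34 and -0.26, against -0.27 with all libraries and no covariate. Of the fluoxetine libraries, the first of these fits kept only females 3 and 4 and males 3 and 4. The part of neighbouring tissue in the result was not tested. Microglial markers had a median interaction of -0.13 (18 of 24 negative), with library means of -0.10 to 0.10 in all 14 libraries, and their part in the result was not tested. The labels do not say whether libraries of a group came from separate litters or days. The p-values rest on a spread within groups pooled over all 29 libraries, WT and lithium included. With the spread of the 4 compared groups alone, 0 genes were called in the interaction.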

How the data were processed

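Bulk RNA of prefrontal cortex was sequenced with a stranded poly(A) library kit, per the labels, which name 1 batch for every library. The deposited table holds a normalised signal per gene: as its values show, the authors divided each read count by a size factor of the library. Reads could be recovered, since 100% of values were whole multiples of a library's step within 0.0001, although in fluoxetine females 1 and 2 and male 3 that step is near 1. The submitters' processing notes list Salmon 0.11.2, DESeq2 1.19.11, R 3.6.0 and the build GRCm38, and the annotation behind the table and the strand setting are not given in the sources used here. Of 18240 identifiers, 18227 matched GENCODE M21 (GRCm38), which gave names, positions and exon lengths.

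Values were used as log2(value + 1), and fold changes are on that scale. A gene was tested where 3 or more libraries reached a value of 10 (17881 genes, of which 17269 autosomal ones are reported). limma 3.58.1 in R 4.3.3, with a trend of variance on intensity, fitted a mean for each of the groups in all 29 libraries, with the WT and lithium-treated ones included (21 residual degrees of freedom). Tests were two-sided, and p was adjusted over all 17881 genes (Benjamini-Hochberg). The recovered total of each library lay between 22.81 M and 31.71 M reads, so genes with few reads are the least precise. edgeR 4.0.16 and DESeq2 1.42.0 on recovered reads were alternatives. Only the limma fit was run on simulated counts. These were drawn for each gene independently, so that run does not cover shifts shared by many genes. Named genes had an assigned name and a mean of at least 50 over the 14 libraries: the 10 with the smallest p per direction for the interaction, 6 per direction within each sex, up to 3 per list, and every gene called in the interaction. List values are medians over tested members, beside the same over all tested genes. The comparison, the lists and the members were chosen with earlier results of these data known. The value of 1 gene is not reported here.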

Additional observations from a re-analysis of the deposited data

Results flagged for a closer look

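The female and male responses differed by the test of the interaction in 17 genes (female minus male, log2). The difference was -0.71 for Ndufa2, -0.68 for Uqcr10, -0.63 for Rpl38, -0.58 for Cox7a2, -0.57 for 1110065P20Rik, -0.55 for Polr2l and -0.53 for both Atp5e and 2410015M20Rik. It was -0.45 for Acot13, -0.44 for Nprl2, -0.43 for Psmb3, -0.42 for Txndc17, -0.40 for Mrpl20, -0.37 for Oaz1, -0.34 for Psmb4, -0.34 for Rab24 and 0.98 for Pcdhga2.

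In groups of 4, single libraries stood far from the other 3 in 12 of 142 checks. Chance flags about 1 in 20 of independent checks. These checks reuse the same libraries, and complex I and Atp5e are part of the oxidative phosphorylation list, so the shares cannot be compared. Fluoxetine male 4 was low in Phf14 (1470) and Ccdc88a (1762), high in Atp5e (1386), high in the mean of oxidative phosphorylation genes (0.19) and of complex I (0.20), and low in the mean of potassium channel genes (-0.16). Fluoxetine male 3 stood apart in the means of interferon genes (0.029) and microglial genes (0.10), fluoxetine male 2 in that of layer 5 genes (0.093) and fluoxetine male 1 in Rab24 (1553). Fluoxetine female 1 was high in Oaz1 (3506), and fluoxetine female 2 in the mean of striatal markers (1.95). Without fluoxetine male 4, 7 genes were called in the interaction and 25 within females.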

How the results depend on the processing

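The interaction called 17 genes, and between 12 and 22 with quantile normalisation, median-ratio rescaling, a pseudocount of 0.5 or 10, a filter at 50 or none, no trend, robust moderation, library weights, edgeR, or adjustment over autosomal genes. It called 0 with only the 4 groups compared (1805 at an unadjusted p under 0.05), 192 with DESeq2, 75 at a threshold of 0.1, 31 with the marker means as covariates, 68 without libraries with high markers and 0 with the length index, an alternative chosen after seeing the data. Leaving out 1 library gave 2 to 47: 2 without vehicle female 3, 3 without vehicle male 1, 7 without fluoxetine female 4 or male 4, 9 without fluoxetine female 3, fluoxetine male 2 or vehicle male 3, 11 without vehicle female 1, 27 without fluoxetine male 1, 35 without vehicle female 2, and 47 without fluoxetine female 2 or vehicle male 2. Of named genes, Ndufa2 and Nprl2 stayed past the threshold on leaving out any library.

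In females, 3 calls became 9 with quantile normalisation, 19 with median ratios, 6 and 5 with pseudocounts of 0.5 and 10, 18 without a filter, 17 with a filter at 50, 1 without a trend, 5 with robust moderation, 118 with library weights, 0 with the 4 groups alone (1557 at an unadjusted p under 0.05), 6 with edgeR, 130 with DESeq2, 0 with marker covariates, 0 with the length index, 27 at a threshold of 0.1 and 0 adjusted over autosomal genes. Leaving out 1 library gave 0 (without fluoxetine female 4 or vehicle female 3) to 77 (without fluoxetine female 1), with 25 without fluoxetine male 4. Males had 0 calls in all 33 other settings.

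The replicate number as a block gave 11 calls in the interaction and 1 in females by the titles, and 7 and 0 by the library names, whose vehicle female numbers differ from the titles. Same-numbered libraries had correlations of -0.20 to 0.17 in 19 pairs, 2 of them over 0.1, both female pairs by the library names. The 19 count the male pairs under both numberings, and some join a female with a male library. Correlations from groups this small cannot show whether the numbers pair the libraries. No direction of a called gene reversed. Of the other values of named genes and lists, 4537 kept their call or moved by less than 1 SD, 187 lost a call, 94 gained one and 74 moved by more. The cause of these changes was not tested.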
